A study of Mus musculus with 6 samples.

Results

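The genes described here encode the proteins of the mitochondrial ribosome, and they were taken by name: every gene of the deposited expression table whose symbol is Mrps or Mrpl followed by a number and at most 1 letter. That rule gave 77 genes of 12067, 29 with small-subunit names (Mrps) and 48 with large-subunit names (Mrpl), and it used no measured value. All 77 passed the filter on low values, which kept 10609 of all genes. By the known structure of the mammalian particle, 26 of the proteins sit in the small subunit and 50 in the large subunit. Mrps18a and Mrps30 belong to the large subunit in spite of their names, and Mrps36 is counted apart because its product is now known as a subunit of the 2-oxoglutarate dehydrogenase complex.

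RNA was measured in skeletal muscle stem cells, also called satellite cells, which lie along the fibres and repair them. They came from limb muscles of male C57BL/6 mice, sorted as CD45-, CD31-, Sca1- and VCAM+, then stained with ThiolTracker Violet (5 uM), a dye for reduced glutathione (GSH), and sorted a second time. The young group was 4 months old with every cell kept, nearly all of them GSH-high, and each of its 2 libraries came from 1 animal. The old animals were 23 months old, and their cells were divided into old GSH-high and old GSH-low, with 2 libraries each and 2 pooled animals per library. The labels name no transgene and no treatment in life. Age, the pooling of animals and the gate on the dye all changed between young and old, so their effects cannot be told apart. Whether an old GSH-high and an old GSH-low library came from the same animals is not given in the sources used here.

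Mitochondria keep a small genome of their own that encodes core subunits of the respiratory chain, and a dedicated ribosome translates it. The rRNAs of that ribosome come from mitochondrial DNA, whereas all of its proteins are encoded in the nucleus, made in the cytosol and imported. Quiescent muscle stem cells are known for a low mitochondrial content that grows when they activate.

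The 77 genes lie on 17 chromosomes, 11 of them on chromosome 11. Nuclear genes for mitochondrial proteins are known for start regions bound by NRF1, by ETS factors such as GABP, and by YY1, so 3 exact motifs were searched on both strands from 250 bases before to 50 bases after the annotated start: GCGCATGCG for NRF1, CCGGAAGT for ETS factors and AAGATGGC for YY1. None of the 3 motifs contains another, but the NRF1 motif is nearly its own reverse complement, so that 1 site can match on both strands. Promoter sequences come from RefSeq on GRCm38.p6, in which 68 of the 77 genes were matched. The NRF1 motif was found in 7 of the 68 (10.3%, against 4.23% of the tested genes with a promoter and 1.95% of all 27025 genes in the RefSeq promoter set). The ETS motif was found in 12 (17.6%, against 9.57% and 4.31%), and the YY1 motif also in 12 (17.6%, against 5.63% and 3.19%). A match is a run of letters and not a measured binding site.

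Whole promoters are shown because their genes are used in the results below, each with its motif in capitals and everything else in lower case. They are written 5′ to 3′ on the gene's strand, in GRCm38.p6 coordinates. The annotation gives Mrpl36 several starts, and the promoter shown is not that of its outermost start but of a start further into the gene. Mrpl36 and Mrps12 carry the YY1 letters, Mrpl22 the NRF1 letters and Mrpl27 the ETS letters.
Mrpl36 chr13:73330759-73331058, plus strand: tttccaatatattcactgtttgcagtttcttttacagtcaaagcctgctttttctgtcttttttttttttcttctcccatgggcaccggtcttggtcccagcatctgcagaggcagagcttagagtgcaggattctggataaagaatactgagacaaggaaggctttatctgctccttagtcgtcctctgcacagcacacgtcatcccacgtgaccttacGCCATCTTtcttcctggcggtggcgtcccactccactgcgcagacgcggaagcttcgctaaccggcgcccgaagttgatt
Mrps12 chr7:28741772-28742071, minus strand: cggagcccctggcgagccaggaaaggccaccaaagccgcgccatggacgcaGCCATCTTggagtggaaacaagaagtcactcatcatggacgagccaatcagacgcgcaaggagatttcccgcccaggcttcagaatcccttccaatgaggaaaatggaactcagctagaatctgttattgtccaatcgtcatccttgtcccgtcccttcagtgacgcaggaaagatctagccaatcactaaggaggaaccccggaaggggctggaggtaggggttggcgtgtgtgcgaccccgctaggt
Mrpl22 chr11:58171414-58171713, plus strand: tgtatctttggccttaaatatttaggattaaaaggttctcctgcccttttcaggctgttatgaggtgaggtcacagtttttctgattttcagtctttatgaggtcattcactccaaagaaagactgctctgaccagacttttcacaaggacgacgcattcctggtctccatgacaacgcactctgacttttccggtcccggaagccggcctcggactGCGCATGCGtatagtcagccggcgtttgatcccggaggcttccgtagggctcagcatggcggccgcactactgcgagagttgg
Mrpl27 chr11:94653541-94653840, plus strand: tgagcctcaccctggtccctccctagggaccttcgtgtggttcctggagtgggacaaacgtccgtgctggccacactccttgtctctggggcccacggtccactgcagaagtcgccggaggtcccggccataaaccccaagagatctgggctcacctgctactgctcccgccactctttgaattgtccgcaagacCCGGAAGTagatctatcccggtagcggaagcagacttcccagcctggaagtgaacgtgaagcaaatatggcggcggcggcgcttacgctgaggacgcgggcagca

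Shorter windows around the motif, again in capitals, show how its place differs among other members. In Mrps7, Mrps18a, Mrpl35, Mrpl37 and Mrpl42 the YY1 letters lie just after the start of the transcript and read AAGATGGC on the gene's own strand, so that they contain an ATG. In Mrps11 they lie before the start and on the other strand.
Mrps7: gacagcggccAAGATGGCtgcccccgcg
Mrps18a: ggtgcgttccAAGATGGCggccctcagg
Mrpl35: ggcaggctgcAAGATGGCggcttccatc
Mrpl37: tgcacgggcaAAGATGGCggcgtccagg
Mrpl42: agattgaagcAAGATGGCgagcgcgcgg
Mrps11: tacgggcgccGCCATCTTtctgtcttcc
The NRF1 letters of Mrpl39 and Mrpl9 match on both strands at 1 site, and those of Mrpl17 match on its own strand only.
Mrpl39: aaggagaggcGCGCATGCGCccccgcgt
Mrpl9: aggcgcagctGCGCATGCGCggggtcct
Mrpl17: ccgagttactGCGCATGCGtcctctgag
The ETS letters stand near the start in Mrpl3, Mrpl43, Mrps22 and Mrps26.
Mrpl3: gagaaacggaCCGGAAGTggcccggctg
Mrpl43: aaccccggaaCCGGAAGTcaccggttag
Mrps22: acctctcgagCCGGAAGTtgctctatcg
Mrps26: ctccgcggccACTTCCGGgccgggcgca

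Levels are given as RPKM, reads scaled to library size and to exon length, counted over all annotated exons of a gene. A ranking of genes by RPKM thus also depends on that length. The 6 most abundant members over all libraries were Mrpl12 (mean 56.2 RPKM), Mrps28 (44.0), Mrps6 (37.7), Mrps7 (37.5), Mrpl54 (36.9) and Mrpl52 (35.5). Mrpl12 forms the flexible stalk that recruits translation factors. The 6 lowest were Mrpl47 (2.06), Mrps36 (1.81), Mrpl19 (1.76), Mrps25 (1.73), Mrps34 (1.66) and Mrps35 (1.12). RPKM thus spanned a wide range, although the products of all members but Mrps36 are counted in 1 particle. Exon lengths ran from 783 to 2072 bases in the 6 highest members and from 1274 to 8631 in the 6 lowest. The part of exon length in this ranking was not tested. Other genes share 77.8% of the exon bases of Mrps34 and 69.8% of those of Mrps25, and how the authors' counting treated shared bases is not given in the sources used here. Whole reads could be recovered from the RPKM values, and each member had at least 80 reads in every library from a total of 46.98 to 68.77 M reads per library.

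**Figure D1:**
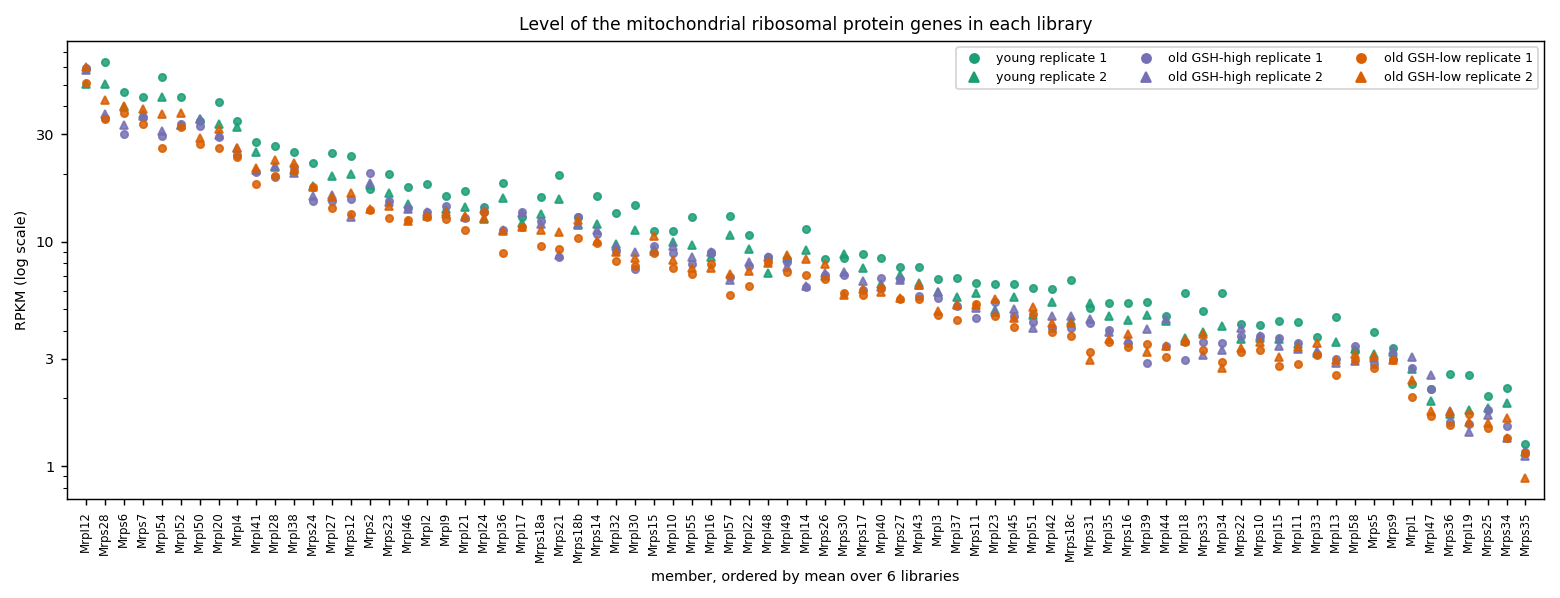
RPKM (log scale) of the 77 members in each of the 6 libraries, ordered by their mean over the libraries. Colours mark the groups and shapes the replicates, and young replicate 1 is the highest of the 6 libraries for 65 members.

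Added over the 77 genes, the level was 1106 and 932 RPKM in the young libraries, 828 and 842 in the old GSH-high libraries, and 762 and 855 in the old GSH-low libraries. The group means were 1019 ± 124, 835 ± 10.1 and 809 ± 66.1 RPKM (SD, n = 2 each). Both young libraries were above all 4 old ones, and the old groups overlapped. The small subunit went from 342 ± 42.3 RPKM in young cells to 268 ± 1.65 in old GSH-high and 269.7 ± 21.3 in old GSH-low cells (SD, n = 2). The large subunit went from 675 ± 80.6 to 565 ± 8.31 and 537 ± 44.6 RPKM (SD, n = 2). In bulk RNA, fewer cells of a kind and less RNA per cell cannot be told apart.

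The young libraries differed from each other across these genes. Replicate 1 was above replicate 2 for 70 of the 77 members, against 54.1% of all genes tested, with a median log2 difference of 0.21 for the members and 0.02 for all genes. Old GSH-low replicate 1 was below replicate 2 for 63 members, against 50.5% of all genes, and was the lowest of the 6 libraries for 49. The old GSH-high libraries were close, with a median difference of -0.03. The age comparisons below rest on which of these libraries enter, so each is given with and without them.

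**Figure D2:**
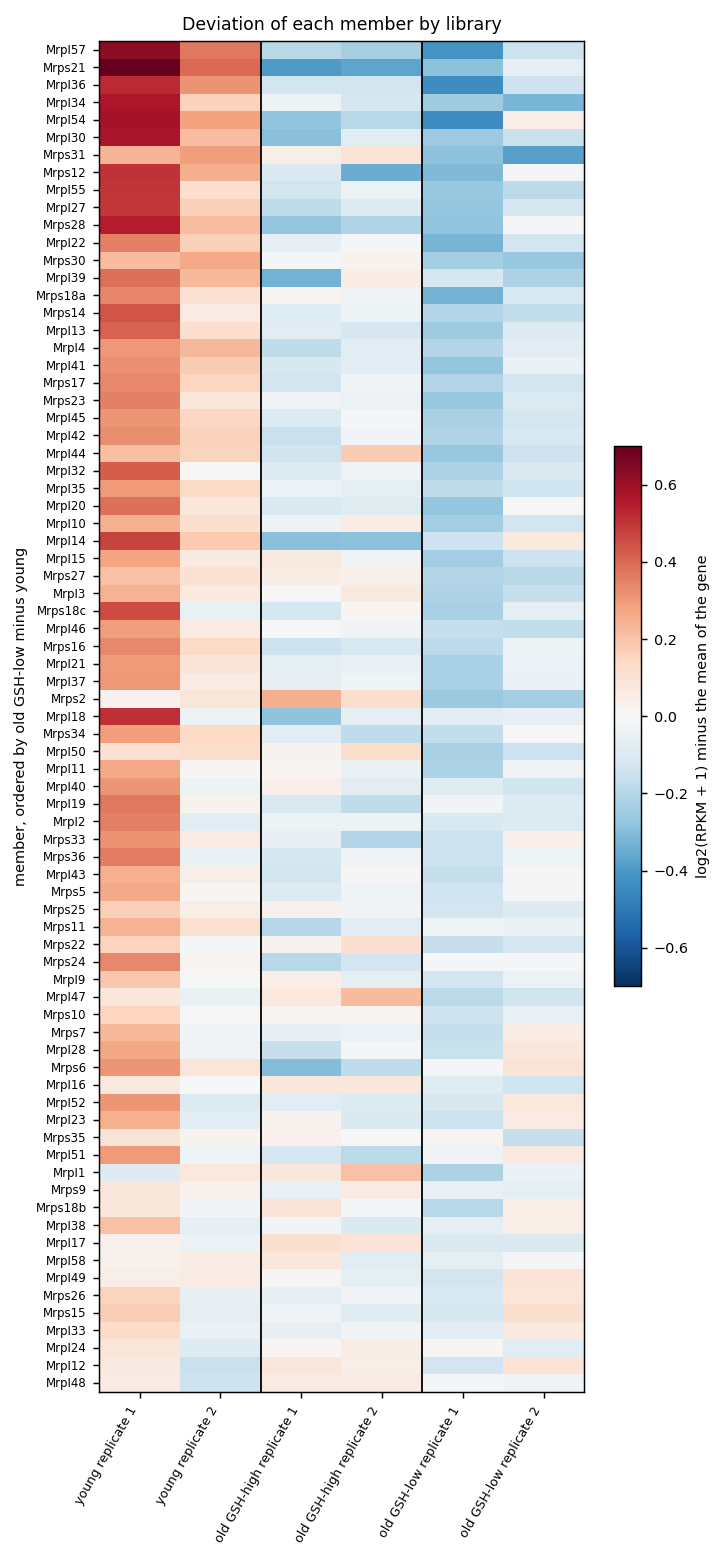
Each member's log2(RPKM + 1) in each library minus that member's mean over the 6 libraries, with red above and blue below, and members ordered by the difference of old GSH-low from young. The median member deviates by 0.30 in young replicate 1, 0.06 in young replicate 2, between -0.06 and -0.04 in old GSH-high and by -0.18 and -0.07 in old GSH-low.

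Between young and old GSH-high cells 20 of the 77 members fell (26.0%) and none rose. Of all genes tested, 13.7% fell and 15.1% rose in this comparison. Fold changes are differences of log2(RPKM + 1), which shrink those of low genes, tested with limma and adjusted by Benjamini-Hochberg over all genes. The member median was -0.23, with 68 members below 0 and 9 above, against -0.004 for all genes, of which 50.6% were below 0. Values ran from -0.94 for Mrps21 to 0.15 for Mrpl1. Both old GSH-high libraries lay below both young ones for 46 members, against 33.7% of all genes, and above both for 4. The share of all genes above both was not counted.

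The count depends on single libraries. It was 8 without young replicate 1 (10.4% of members, against 9.61% of all genes that then fell) and 42 without young replicate 2 (54.5% against 18.5%). Leaving out old GSH-high replicate 1 gave 4 (5.19% against 5.20%), and leaving out replicate 2 of that group gave 10 (13.0% against 7.13%). Either old GSH-low library enters only the estimate of the spread, and leaving out replicate 1 or replicate 2 gave 13 each time. The counts without an old GSH-low library have no share of all genes beside them and do not tell whether members or all genes moved. The share of members that fell was close to that of all genes without young replicate 1 or without old GSH-high replicate 1. The median stayed below 0 in each of these fits, from -0.35 without young replicate 2 to -0.10 without young replicate 1.

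**Figure D3:**
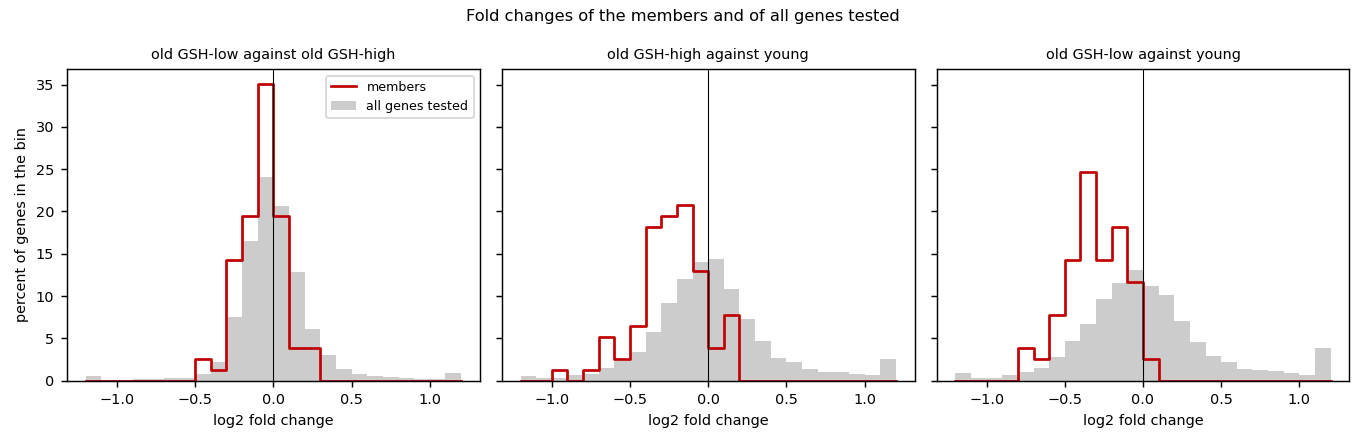
Distribution of log2 fold changes in bins of 0.1 for the 77 members (red line) and for all 10609 genes tested (grey), as percent of genes in each bin, with more extreme values added to the end bins. The members lie left of 0 in both comparisons with young (medians -0.23 and -0.31), and their median is -0.07 between the old fractions.

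Mrps21, a small-subunit protein with a bacterial counterpart (chr3:95862634-95871519), had the lowest fold change of the members in old GSH-high against young. Its level was 19.7 and 15.5 RPKM in the young libraries, 8.51 and 8.70 in old GSH-high, and 9.28 and 11.0 in old GSH-low. All 4 old libraries were below both young ones. The gene fell by 0.94 on the log2 scale in old GSH-high cells (SE 0.12, adjusted p = 6.99e-04, 48.9% of the young mean) and by 0.74 in old GSH-low cells (SE 0.12, adjusted p = 0.00206). Mrpl57, a large-subunit protein without a bacterial counterpart (chr14:57826234-57829296), had 13.0 and 10.7 RPKM in young, 6.93 and 6.72 in old GSH-high, and 5.79 and 7.17 in old GSH-low libraries. Here too no old library reached a young one. It fell by 0.71 (SE 0.12, adjusted p = 0.00285) and by 0.78 (SE 0.12, adjusted p = 0.00130) against young. Mrps21 and Mrpl57 were called in both age comparisons under all 14 alternatives, every library left out in turn included.

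Mrpl14, whose bacterial counterpart lies at the interface of the subunits (chr17:45686322-45698495), had 11.4 and 9.16 RPKM in young libraries, 6.29 and 6.32 in old GSH-high, and 7.10 and 8.38 in old GSH-low. It fell by 0.62 in old GSH-high cells (SE 0.12, adjusted p = 0.00510), a call that held under all 14 alternatives. In old GSH-low cells it fell by 0.36 (adjusted p = 0.0400), and this call ended without young replicate 1 (adjusted p = 0.168), without replicate 1 of old GSH-low (0.248) and without either library of old GSH-high (0.0646 and 0.0647). Mrpl36, a small zinc-binding protein of the large subunit (chr13:73328513-73332178), had 18.2 and 15.6 RPKM in young, 11.2 and 11.2 in old GSH-high, and 8.89 and 11.1 in old GSH-low libraries. The old values were all below the young ones. It fell by 0.55 in old GSH-high cells (SE 0.12, adjusted p = 0.00853, or 0.0519 when replicate 1 of old GSH-high is left out) and by 0.71 in old GSH-low cells (SE 0.12, adjusted p = 0.00192).

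Mrps28, the second most abundant member and a small-subunit protein, had 63.3 and 50.1 RPKM in young, 35.4 and 37.0 in old GSH-high, and 35.3 and 42.8 in old GSH-low libraries. It fell by 0.62 in old GSH-high cells (SE 0.13, adjusted p = 0.00773, or 0.0567 when replicate 1 of old GSH-high is left out). Mrps12, the decoding-centre protein, had 24.0 and 20.0 RPKM in young, 15.4 and 12.8 in old GSH-high, and 13.2 and 16.5 in old GSH-low libraries. No old library of either gene reached a young one. Mrps12 fell by 0.61 in old GSH-high cells (SE 0.14, adjusted p = 0.0108), a call that ended without young replicate 1 (0.0543) and without old GSH-high replicate 2 (0.0802). Mrpl4, which lines the exit tunnel, had 34.3 and 32.5 RPKM in young, 24.3 and 26.1 in old GSH-high, and 23.8 and 26.2 in old GSH-low libraries, so that its young and old values did not overlap either. It fell by 0.39 in old GSH-high cells (SE 0.09, adjusted p = 0.0109, or 0.109 when replicate 1 of old GSH-high is left out).

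Mrpl30 fell by 0.58 (SE 0.13, adjusted p = 0.0107, or 0.0899 when replicate 1 of old GSH-high is left out) in old GSH-high cells, and Mrpl54 by 0.67 (SE 0.16, adjusted p = 0.0140, or 0.0722 when young replicate 1 and 0.0828 when replicate 1 of old GSH-high is left out). The others that fell in old GSH-high cells were Mrps6, Mrps11, Mrps16, Mrps17, Mrps34, Mrpl27, Mrpl34, Mrpl39, Mrpl41, Mrpl42 and Mrpl55. Mrps6, whose exons are 19.9% shared with other genes, is given with both fractions because it was not called in the other one. It had 46.5 and 39.7 RPKM in young, 30.1 and 33.0 in old GSH-high, and 37.2 and 40.0 in old GSH-low libraries. The old GSH-high libraries were the lowest, and the old GSH-low libraries overlapped the young ones. Mrps6 fell by 0.44 in old GSH-high cells (SE 0.10, adjusted p = 0.0126, or 0.115 when replicate 1 of old GSH-high is left out). The difference of old GSH-low from young was -0.15 (adjusted p = 0.266), and that between the old fractions 0.28 (adjusted p = 0.168). The call of Mrps34 (adjusted p = 0.0451) ended with any single library left out except young replicate 2.

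**Figure D4:**
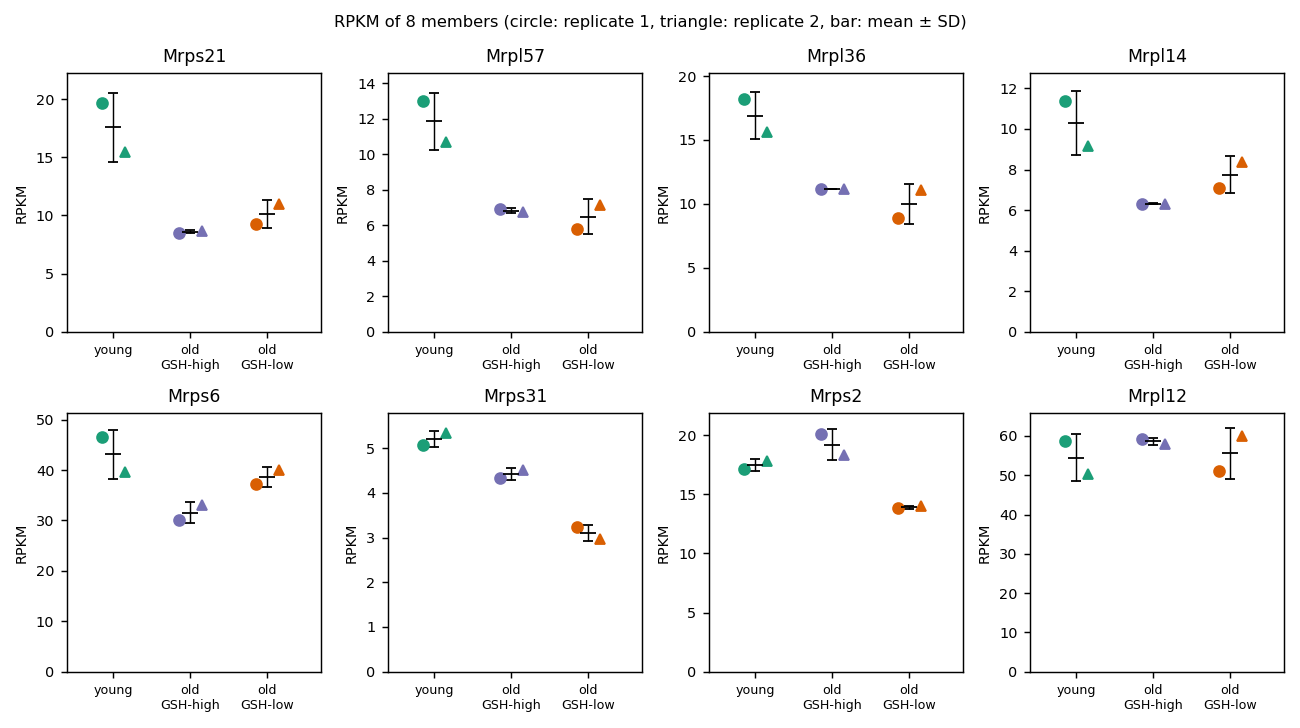
RPKM of 8 members in the 6 libraries, by group, with circles for replicate 1, triangles for replicate 2 and bars for the mean ± SD (n = 2). Mrps21, Mrpl57, Mrpl36 and Mrpl14 are higher in both young libraries than in all old ones, Mrps31 and Mrps2 are lowest in old GSH-low, and Mrpl12 lies between 50.3 and 60.1 RPKM throughout.

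Between young and old GSH-low cells 36 of the 77 members fell (46.8%) and none rose, where 18.7% of all genes tested fell and 18.1% rose. The member median was -0.31, with 75 members below 0, against -0.02 for all genes, of which 52.9% were below 0. Both old GSH-low libraries lay below both young ones for 60 members, against 36.5% of all genes, and above both for 0, where again no share of all genes was counted. All 4 old libraries lay below both young ones for 42 members, against 26.5% of all genes. This comparison uses the same young libraries as the one above, so the age comparisons are not independent of each other. The count was 18 without young replicate 1 (23.4% of members, against 15.6% of all genes that then fell) and 6 without old GSH-low replicate 1 (7.79% against 7.73%). It was 50 without young replicate 2 (64.9% against 21.7%), 25 without old GSH-low replicate 2 (32.5% against 12.4%) and 32 without either old GSH-high library. The last of these counts has no share of all genes beside it and does not tell whether members or all genes moved. The median ranged from -0.43 to -0.20 over the fits with 1 library left out.

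Mrps31, a small-subunit protein particular to mitochondria (chr8:22411361-22429665), had 5.08 and 5.33 RPKM in young, 4.32 and 4.52 in old GSH-high, and 3.23 and 2.97 in old GSH-low libraries. The 3 groups did not overlap. It fell by 0.60 in old GSH-low cells against young (SE 0.09, adjusted p = 0.00114), and its difference in old GSH-high cells was -0.20 (SE 0.09, adjusted p = 0.135). Mrps30, a large-subunit protein in spite of its name (chr13:118378381-118387252), had 8.48 and 8.81 RPKM in young, 7.10 and 7.29 in old GSH-high, and 5.92 and 5.77 in old GSH-low libraries, again without overlap. It fell by 0.49 against young (SE 0.08, adjusted p = 0.00209), with -0.24 in old GSH-high cells (adjusted p = 0.0634). Mrpl34, the shortest member (607 exon bases, 80 to 218 reads per library), had 5.91 and 4.21 RPKM in young, 3.55 and 3.30 in old GSH-high, and 2.92 and 2.74 in old GSH-low libraries. It fell by 0.65 in old GSH-low cells (SE 0.13, adjusted p = 0.00582). The calls of Mrps30, Mrps31, Mrpl34 and Mrpl36 in old GSH-low cells held under all 14 alternatives.

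Besides the members described above and Mrpl22, Mrpl30 and Mrps18a, those that fell in old GSH-low cells were Mrps2, Mrps12, Mrps14, Mrps16, Mrps17, Mrps23, Mrps27, Mrps28, Mrpl3, Mrpl4, Mrpl10, Mrpl13, Mrpl15, Mrpl20, Mrpl21, Mrpl27, Mrpl35, Mrpl39, Mrpl41, Mrpl42, Mrpl44, Mrpl45, Mrpl46, Mrpl50, Mrpl54 and Mrpl55. Mrpl22, which lines the exit tunnel, fell by 0.49 in old GSH-low cells (SE 0.10, adjusted p = 0.00685, or 0.0675 when replicate 1 of old GSH-low is left out). Mrpl30 fell by 0.60 (SE 0.13, adjusted p = 0.00734, and 0.0562 without that library). Mrps18a, Mrps18b and Mrps18c are paralogs of 1 bacterial protein. Of these, Mrps18a, the one that sits in the large subunit, fell by 0.44 (SE 0.11, adjusted p = 0.0156, or 0.0632 when young replicate 1 and 0.127 when replicate 1 of old GSH-low is left out). Mrps18b differed by -0.10 (adjusted p = 0.473) and Mrps18c by -0.35 (adjusted p = 0.113). Mrpl11, at the base of the stalk, differed by -0.26 (adjusted p = 0.113), Mrps36 by -0.24 (adjusted p = 0.201) and Mrpl58, the peptidyl-tRNA hydrolase of the large subunit, by -0.08 (adjusted p = 0.530).

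By subunit, 8 of the 26 small-subunit members fell in old GSH-high cells and 10 in old GSH-low cells (30.8% and 38.5%, against 13.7% and 18.7% of all genes), with median log2 fold changes of -0.23 and -0.23. Of the 50 large-subunit members, 12 and 26 fell (24.0% and 52.0%), with medians of -0.22 and -0.33. Of the 44 proteins listed with a bacterial counterpart, 12 and 20 fell (27.3% and 45.5%, medians -0.26 and -0.31), and of the 32 listed as particular to mitochondria, 8 and 16 fell (medians -0.20 and -0.31). The last list includes Mrps28 and Mrpl55, which newer nomenclature relates to bacterial proteins. It also includes Mrps18a and Mrps18b, described above as paralogs of 1 bacterial protein. No difference between these classes was tested, and the counts rest on the same libraries as the totals given before.

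Some members, abundant ones among them, were not called in either comparison with young. Mrpl12 had 58.7 and 50.3 RPKM in young, 59.3 and 58.0 in old GSH-high, and 51.0 and 60.1 in old GSH-low libraries. Its groups overlapped, and the differences from young were 0.11 (SE 0.11, adjusted p = 0.487) and 0.03 (SE 0.11, adjusted p = 0.865). Mrpl24 (0.04 and -0.03) and Mrpl48 (0.10 and 0.03) were also near 0, with adjusted p of at least 0.449 in each comparison with young. Mrps7 differed by -0.15 and -0.16 (adjusted p = 0.319 and 0.285), and Mrpl52 by -0.20 and -0.13 (adjusted p = 0.295 and 0.469). Mrpl1 and Mrpl47 had the highest differences from young in old GSH-high cells (0.15 and 0.14, adjusted p = 0.333 and 0.350). These p-values do not show that the levels were equal.

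Between the old fractions, which separate cells of 1 age by glutathione, 2 of the 77 members fell (2.60%) and none rose, where 1.69% of all genes fell and 3.69% rose. The member median was -0.07 against -0.01 for all genes, with 56 members below 0 and 21 above. Of all genes, 52.6% were below 0. Both old GSH-low libraries lay below both old GSH-high ones for 32 members, against 29.8% of all genes, and above both for 7. No share of all genes was counted for that last direction, so the 7 cannot be called few or many. Mrps2, a small-subunit protein with a bacterial counterpart (chr2:28468066-28471178), had 20.1 and 18.3 RPKM in old GSH-high and 13.8 and 14.0 in old GSH-low libraries, beside 17.1 and 17.8 in young ones. The old GSH-low libraries were the lowest and the old GSH-high libraries the highest of the 6. Mrps2 fell by 0.44 in old GSH-low cells (SE 0.08, adjusted p = 0.0187, 72.5% of the old GSH-high mean). Mrps31, with the levels given above, fell by 0.40 (SE 0.09, adjusted p = 0.0352, 70.1%). Both calls ended without any 1 of the 4 old libraries (adjusted p from 0.0752 to 0.255), and the count was then 0. The call of Mrps31 also ended with limma-voom on the recovered reads (adjusted p = 0.0572). The next lowest value was that of Mrpl47 (-0.31, adjusted p = 0.135), and the highest were those of Mrps6, Mrpl14 and Mrps21 (0.28, 0.26 and 0.21, adjusted p = 0.168, 0.279 and 0.405).

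Gene length moved with these differences. Exons of the members span 607 to 8631 bases, with a median of 2533. Over the 8 members with at most 1000 exon bases the median differences from young were -0.54 in old GSH-high and -0.53 in old GSH-low cells, where all genes of that length had -0.15 and -0.07. Over the 12 members longer than 6000 bases they were -0.11 and -0.22, where all such genes had 0.05 and 0.04. The young libraries differed along the same axis: young replicate 1 minus replicate 2 had a median of 0.26 for all genes of at most 1000 bases and -0.07 for those over 6000, and 0.31 and 0.18 for the members. Across the 77 members, which share libraries and depth, the log10 exon length had a Pearson correlation of 0.49 with the difference of old GSH-high from young, 0.35 with that of old GSH-low from young and -0.37 with that between the young libraries, given as descriptions. With a smooth trend over length and GC content removed from all genes, 33 members fell in old GSH-high cells and 44 in old GSH-low cells (42.9% and 57.1%, against 20.8% and 26.9% of all genes), with medians of -0.23 and -0.32. This alternative was chosen after seeing the data. Any further part of length in these differences was not tested.

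**Figure D5:**
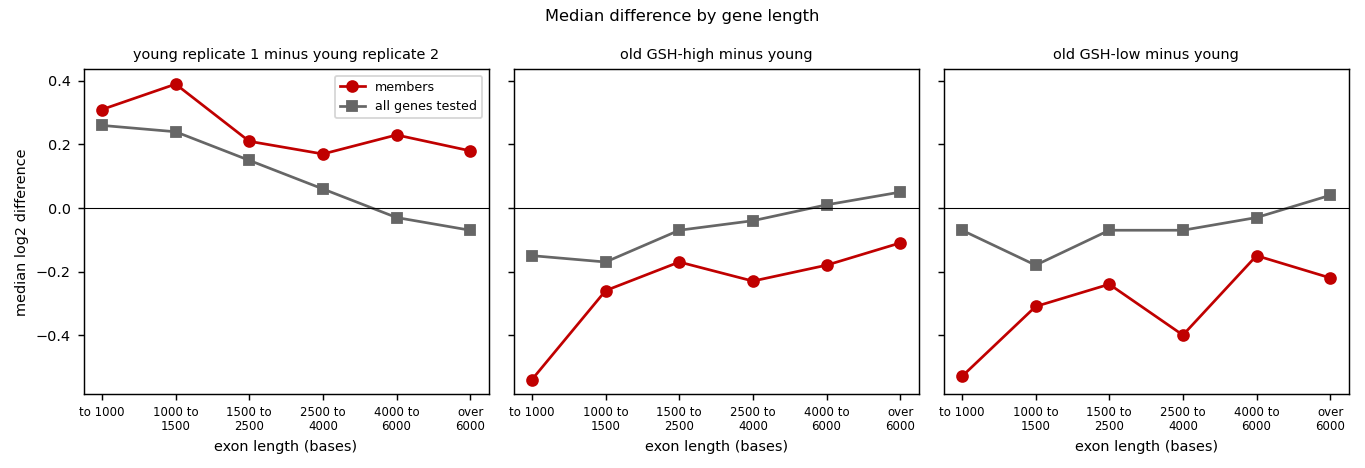
Median log2 difference by exon length in bases for the members (red circles) and all genes tested (grey squares), between the young libraries and between each old group and young. The members lie above all genes in the left panel and below them in the other panels in each length class.

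The strand kept by the libraries is not given in the sources used here, so reads from overlapping genes cannot be told apart. Exons of 32 members overlap those of another gene, and those of 45 do not. Among the 45, 14 fell in old GSH-high and 25 in old GSH-low cells (31.1% and 55.6%), with medians of -0.23 and -0.36. Among the 32, 6 and 11 fell (18.8% and 34.4%), with medians of -0.18 and -0.22. Of all genes tested, 13.7% and 18.7% fell. Between the old fractions 2 of the 45 fell (4.44%, against 1.69% of all genes) and 0 of the 32. The difference between the 45 and the 32 was not tested.

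A head-to-head neighbour was a protein-coding gene on the other strand whose start lay up to 1000 bases before the member's, or shortly after it. Such a neighbour was found for 23 members, and 17 of these neighbours were tested. Against young, 2 of the 17 neighbours fell and 2 rose in old GSH-high cells, and 3 fell and 3 rose in old GSH-low cells, with medians of -0.16 and -0.10. The shares that fell, 11.8% and 17.6%, are near those of all genes (13.7% and 18.7%). The 17 members beside them had medians of -0.27 and -0.38, and 7 and 11 of them fell (41.2% and 64.7%). The difference between neighbours and members was not tested. Ndufs6, a subunit of respiratory complex I that starts beside the outermost start of Mrpl36 (which is not the start whose promoter is shown), had 39.4 and 31.8 RPKM in young, 19.9 and 20.4 in old GSH-high, and 18.4 and 23.1 in old GSH-low libraries. Like Mrpl36 it was lower in all old libraries, and it fell by 0.78 (SE 0.13, adjusted p = 0.00269) and by 0.75 (SE 0.13, adjusted p = 0.00249). The exons of Mrpl36 overlap it over 2.58% of their bases. Eme1, a DNA repair nuclease subunit next to Mrpl27, went the other way.

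Eme1 had 2.14 and 2.00 RPKM in young, 3.50 and 3.53 in old GSH-high, and 2.86 and 3.14 in old GSH-low libraries, and it rose by 0.56 (adjusted p = 0.00256) and 0.38 (adjusted p = 0.0124). Mrpl27, whose bacterial counterpart reaches into the peptidyl transferase centre, had 24.7 and 19.5, 15.1 and 16.1, and 14.1 and 15.8 RPKM in the same order of libraries. Its young and old values did not overlap, and it fell by 0.47 (adjusted p = 0.0187) and 0.53 (adjusted p = 0.00910). The first of these calls ended without young replicate 1 and without either library of old GSH-high (adjusted p up to 0.123), and the second when replicate 1 of old GSH-low was left out (adjusted p = 0.0749). Sars2, the mitochondrial seryl-tRNA synthetase beside Mrps12, had 2.11 and 2.16, 1.55 and 1.76, and 1.80 and 2.16 RPKM in the same order. It differed from young by -0.24 (adjusted p = 0.113) and -0.07 (adjusted p = 0.596), whereas Mrps12 fell in both (in old GSH-low by 0.54, adjusted p = 0.0144, a call that ended without young replicate 1, 0.0681, and when replicate 1 of old GSH-low was left out, 0.115). These neighbours were picked for their known functions and their values.

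The motifs described above were also counted among the members called in either comparison with young, of which 33 have a promoter in the table. The NRF1 letters were present in 3 of these 33, the ETS letters in 3 and the YY1 letters in 7. Among all 68 members with a promoter they were present in 7 (10.3%), 12 (17.6%) and 12 (17.6%). Whether the motifs go with the calls was not tested. The 9 tested regulators of nuclear genes for mitochondria include the factors that bind these motifs. Of the 9, Pprc1, a coactivator related to PGC-1, rose in both old groups and no other was called. This share, 11.1% in each comparison, is below the 15.1% and 18.1% of all genes that rose. Pprc1 had 40.5 and 42.2 RPKM in young, 57.9 and 54.5 in old GSH-high, and 59.2 and 57.1 in old GSH-low libraries, with no overlap between young and old. It rose by 0.43 (SE 0.08, adjusted p = 0.00473) and 0.48 (SE 0.08, adjusted p = 0.00207). Nrf1 differed by 0.17 and 0.22 (adjusted p = 0.169 and 0.0747), Gabpa by -0.01 and -0.23 (0.934 and 0.127), Yy1 by -0.14 and -0.01 (0.352 and 0.938) and Myc by 0.01 and -0.01 (0.950 and 0.957).

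Mitoribosomal proteins that carry other names were counted apart. Of 5 tested, Chchd1, a small-subunit protein, fell in old GSH-low cells by 0.35 (SE 0.11, adjusted p = 0.0313), with 38.6 and 31.9 RPKM in young and 26.1 and 28.6 in old GSH-low libraries. Its difference in old GSH-high cells was -0.23 (adjusted p = 0.135). The 1 call of 5 in old GSH-low cells is 20.0%, near the 18.7% of all genes that fell. The small-subunit proteins Dap3 (-0.09 and -0.04), Ptcd3 (0.05 and -0.13) and Aurkaip1 (-0.19 and -0.09) and the large-subunit protein Gadd45gip1 (0.33 and 0.31) were not called, with adjusted p of at least 0.135.

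The particle is built and served by further nuclear-encoded factors, of which the shares called are read against the 13.7% and 18.7% of all genes that fell and the 15.1% and 18.1% that rose. Of 23 tested assembly factors, Noa1, a GTPase of small-subunit assembly, rose in old GSH-high cells (0.36, adjusted p = 0.0276), and Rbfa, which acts in small-subunit maturation, fell in both old groups (by 0.39 and 0.36, adjusted p = 0.0168 and 0.0197). Both 1 rise and 1 fall of 23 are 4.35%, and the medians of the list were -0.01 and -0.01. Of 11 tested translation factors, 2 fell in old GSH-high and 3 in old GSH-low cells, with medians of -0.09 and -0.25. These shares (18.2% and 27.3%) stand beside 13.7% and 18.7% of all genes and rest on few genes. The called factors were Tsfm, the exchange factor of elongation factor Tu (fell by 0.37 and 0.49, adjusted p = 0.0256 and 0.00628), Oxa1l, the insertase that receives the nascent chain (fell by 0.31 and 0.32, adjusted p = 0.0375 and 0.0257), and, past the threshold in old GSH-low cells alone (the difference between the fractions was not past it, -0.30 with adjusted p = 0.115), Gfm1, elongation factor G (fell by 0.47, adjusted p = 0.00522, against -0.16 with adjusted p = 0.231 in old GSH-high).

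Of 16 tested genes of aminoacyl-tRNA synthesis, 6.25% fell in each comparison, with medians of -0.03 and -0.06. Lars2 fell in old GSH-high (by 0.63, adjusted p = 0.0271) and Hars2 in old GSH-low cells (by 0.37, adjusted p = 0.0270). Lars2 had 287 and 192 RPKM in young, 145 and 158 in old GSH-high, and 179 and 216 in old GSH-low libraries. No other tested gene of this list was above 19.2 RPKM in any library. Of 9 tested genes that transcribe and copy mitochondrial DNA, the topoisomerase Top1mt fell in both old groups (by 0.61 and 0.50, adjusted p = 0.00844 and 0.0161). In old GSH-low cells the elongation factor Tefm also fell (by 0.36, adjusted p = 0.0263) and the polymerase subunit Polg2 rose (0.47, adjusted p = 0.0195). Of these 9 genes 11.1% fell in old GSH-high cells, against 13.7% of all genes. In old GSH-low cells 22.2% fell and 11.1% rose, against 18.7% and 18.1%. None of the genes of these 6 related lists was called between the old fractions.

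Markers of other cells moved with the groups. Satellite-cell markers, all 12 measured, summed to 4293 and 4076 RPKM in young, 3891 and 3695 in old GSH-high, and 3327 and 3196 in old GSH-low libraries. The sum was lower in every old library, whereas Pax7, the defining marker, had 7.93 and 7.64, 8.09 and 8.65, and 11.2 and 12.6 RPKM in that order. Sdc4 was the largest part of the sum, with 1954 and 1741, 1633 and 1585, and 1463 and 1336 RPKM. Myod1, also among the 12, had 688 and 674, 877 and 759, and 630.0 and 594 RPKM. How far the sorted cells were quiescent was not tested. Of the 12 markers, 4 fell and 0 rose in old GSH-high cells against young. In old GSH-low cells 6 fell and 1, Pax7, rose. Tendon markers, all 8 measured, summed to 35.2 and 34.2, then 773 and 609.6, then 2937 and 2538 RPKM, and endothelial markers, all 11 measured, to 33.9 and 39.9, then 72.1 and 73.7, then 24.6 and 20.3. Macrophage markers (5 of 7 measured) ranged from 5.71 to 8.26 in young and 30.9 to 42.3 in old libraries. Of the fibro-adipogenic markers (6 of 6), 5 rose in old GSH-high cells against young, among them Dcn (13.9 and 17.8 RPKM in young, 185 and 163 in old GSH-high, 482 and 405 in old GSH-low libraries). Col3a1 fell (268 and 372, then 112 and 120.0, then 89.3 and 101 RPKM). In old GSH-low cells 4 of the 6 rose and 2 fell. Their sums ranged from 314 to 435 RPKM in young, 373 to 379 in old GSH-high and 618 to 702 in old GSH-low libraries.

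Fat markers (4 of 6 measured) were highest in old GSH-high libraries (48.9 to 69.8 RPKM, against at most 3.34 elsewhere). Myofibre markers (7 of 8) were highest in old GSH-low libraries (40.3 and 41.0, against 15.4 to 19.2), as were the lymphocyte markers (4 of 7; 12.8 to 15.6, against at most 2.09). Of the pericyte and smooth muscle markers (6 of 6), 5 rose in old GSH-high cells against young and 4 in old GSH-low cells, among them Rgs5 (3.70 and 3.97 RPKM in young, 7.62 and 8.70 in old GSH-high, 15.3 and 14.0 in old GSH-low libraries). Acta2 fell in both, from 141 and 125 RPKM in young to 56.7 to 77.6 in old libraries, and it makes up most of the list's sum of 134 to 148 RPKM in young and 76.7 to 102 in old libraries. The part of these other cells in the differences of the mitoribosomal genes was not tested.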

How the data were processed

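RNA was measured in 6 libraries of sorted muscle stem cells. Per the submitters' processing notes, Trim Galore, STAR, featureCounts (Subread) and edgeR were used on GRCm38 (mm10), and versions are not given in the sources used here. The authors deposited RPKM for 12067 genes. Values were whole reads times 1 constant per gene and library for 99.99% of genes (within 0.02 reads), giving 46.98 to 68.77 M reads per library, and 230 values were replaced zeros, none in a member. Gene positions and lengths come from GENCODE M21 on the same build.

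The filter kept genes that reached 1 RPKM in 2 libraries. They were tested on log2(RPKM + 1) with limma-trend (limma 3.58.1, R 4.3.3), 3 groups over 6 libraries, 3 residual degrees of freedom, two-sided, with Benjamini-Hochberg adjustment over 10609 genes and a threshold of 0.05. Each p-value sets a difference between groups against the spread between libraries, pooled over the 3 groups and moderated over all genes. That spread mixes young libraries of 1 animal with old libraries of 2 pooled animals. The plan for raw counts (edgeR's quasi-likelihood test) did not apply to RPKM, and the plan for normalised values was used; limma-voom on recovered reads was an alternative.  Tables and figures used Python 3.11.15 with pandas 2.3.3, statsmodels 0.14.6 and matplotlib 3.10.9.

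The genes and lists were chosen with earlier results of these data known. Named members were up to 8 called first by p per comparison and direction, the 6 highest and 6 lowest levels, a fixed panel of 9 and the 3 largest changes per direction where fewer were called; of each related list, up to 4 called genes. Other called members are named in the text without values, and the motif examples and neighbours were picked after their values were seen. Alternatives were another pseudocount (0.1), no filter, 2 other scalings, limma-voom, 4 libraries only, the replicate block, each library left out and, added later, a lowess trend over length and GC removed (span 0.3) and members without exon overlap.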

Additional observations from a re-analysis of the deposited data

How the results depend on the processing

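In old GSH-high against young, where 20 members fell, the count was 11 with library sizes only, 13 with the 4 libraries of the comparison, 12 with the replicate block, 33 with the length and GC trend removed, and 4 to 42 with 1 library left out. Its median of -0.23 then ranged from -0.35 to -0.10. In old GSH-low against young, 36 members fell, 32 with the replicate block, and 6 to 50 with 1 library left out, with medians from -0.43 to -0.20 beside -0.31. Between the old fractions, 2 fell, against 1 with limma-voom, 0 with the replicate block, and 0 to 2 with 1 library left out (medians -0.13 to -0.01). The cause was not tested. Where a count here or above has no share of all genes beside it, the count does not tell whether members or all genes moved. In each of the 14 alternatives no called member changed sign; 3 of 20 calls in old GSH-high and 6 of 36 in old GSH-low held in all of them. Replicate numbers were not taken to pair the libraries, since no label ties them to shared animals and deviations of same-numbered libraries correlated at -0.14, -0.26 and 0.07 across genes, which does not settle whether the old fractions share animals. With the block, adjusted p between the old fractions was 0.0507 for Mrps2 and 0.0812 for Mrps31. Over all genes, 571 calls between the old fractions became 864 with 4 libraries only, and 312 to 863 with 1 library left out. The 3051 calls in old GSH-high became 1493 without old GSH-high replicate 1 and the 3901 in old GSH-low 2068 without old GSH-low replicate 1. Of the calls against young, 52.4% rose in old GSH-high and 49.2% in old GSH-low, 63.1% and 60.1% with library sizes only, and 42.5% and 38.8% with the trend removed.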
